A study of Mus musculus with 8 samples.

Results

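The 10 genes described here are markers of cardiac macrophages: Adgre1, Csf1r and Cd68, carried by macrophages in general, Mrc1, Cd163, Folr2 and Lyve1, carried by macrophages long resident in the tissue, and Ccr2, Cx3cr1 and Lgals3, linked to monocytes, to cells derived from them and to activation. They were chosen by name rather than by a threshold on measured values, though with earlier results of these data known, and are 10 of 55487 annotated genes in the count table and 10 of the 13648 genes with enough reads to be tested. The data are RNA-seq read counts from tissue given as whole mouse heart. All 8 libraries came from db/db mice, whose defective leptin receptor makes them obese and diabetic. In 4 libraries the mice had received vehicle (vehicle 1 to 4) and in 4 they had received DIZE (DIZE 1 to 4), read here as diminazene aceturate, a drug used against protozoa. The dose, route and duration of the treatment and the sex and age of the mice were not stated in the labels, and both groups carry the db/db genotype, so the values describe DIZE in diabetic hearts only. Nothing in the labels says that the libraries stand for separate animals, and the p-values then reflect only how far these samples scatter, which may be technical. Heart tissue was measured in bulk, so fewer macrophages and less RNA per macrophage cannot be told apart.

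Macrophages of the heart come from 2 sources. Some are seeded before birth and renew themselves in place, and these carry scavenger and uptake receptors such as TIMD4, LYVE1, FOLR2 and CD163. Others arise from blood monocytes that enter along gradients of CCL2 and related chemokines read by CCR2, and both kinds depend on CSF1 or IL-34 signalling through CSF1R for survival.

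Of the 10 markers, 0 passed an adjusted p of 0.05 by edgeR's quasi-likelihood test, against 5 of all 13648 tested genes (0.0366%), which comprised 0.022% higher and 0.0147% lower in DIZE. DESeq2, which passed 4.56% of its 13353 genes, and limma-voom likewise passed 0 of the 10 markers. At an unadjusted p under 0.05 each of these 3 tools picked 1 marker, Folr2, and edgeR picked 19.4% of all tested genes, 10.3% lower and 9.11% higher in DIZE. The log2 fold change, DIZE minus vehicle, was below 0 for 8 markers and above 0 for 2, with a median of -0.17, while 51.81% of all tested genes lay below 0 with a median of -0.01. With vehicle 1 left out, 6 of 10 markers lay below 0 and the median was -0.02. That library held the highest level of 7 of the 10 markers, and of 22.5% of all tested genes.

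The libraries had total counts of 7447664 to 10161623 reads in genes. Levels are given in CPM, counts scaled to equal library depth by the reads in tested genes and the TMM factor of each library, and each value with an SD is over the 4 libraries of a group unless another number is given. Genes named in this paragraph were chosen after their values were seen. Vehicle 1 stood apart from the other libraries in more than macrophage genes: Myh6, the main myosin heavy chain of mouse cardiomyocytes, was at 8858 CPM there, against 15570 to 20810 CPM elsewhere, and Myl7, an atrial myosin light chain, was at 278 CPM, against 0.67 to 108 CPM elsewhere. The liver gene Alb was at 1348 CPM in vehicle 2 and at 0 to 6.38 CPM in the other 7 libraries, and the interferon-inducible GTPase gene Igtp was at 535 CPM in vehicle 4 and 13.5 to 58.1 CPM elsewhere. Lepr, the gene mutated in db/db mice, was at 2.44 to 5.44 CPM in the 8 libraries, a level that does not check the splice defect itself.

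Compared per length, the markers fell into an upper and a lower range. Levels here are CPM per kilobase of exon, as mean ± SD over all 8 libraries. Cd68, which encodes a lysosomal glycoprotein, stood first at 18.8 ± 2.58 (n = 8), followed by the hyaluronan receptor gene Lyve1 at 16.9 ± 5.53 and the CSF1 receptor gene Csf1r at 14.8 ± 1.21. Lyve1 did not differ from either of these neighbours in the order beyond their spread. Mrc1, the mannose receptor gene, was at 10.1 ± 3.45, and the haemoglobin scavenger receptor gene Cd163 was at 9.44 ± 2.10. Adgre1, which encodes an adhesion receptor used as the classic mouse macrophage antigen, was at 7.38 ± 2.61, close to Lgals3, the galectin-3 gene, at 7.25 ± 1.82. The lowest levels were those of the folate receptor beta gene Folr2 at 1.55 ± 0.64, the fractalkine receptor gene Cx3cr1 at 0.864 ± 0.484 and the chemokine receptor gene Ccr2 at 0.603 ± 0.305. In the whole order, 2 gaps between neighbours exceeded the sum of their SDs: Csf1r lay above Mrc1 in 7 of 8 libraries, and Lgals3 lay above Folr2 in 8 of 8. The plot of levels per length shows both gaps.

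**Figure D1:**
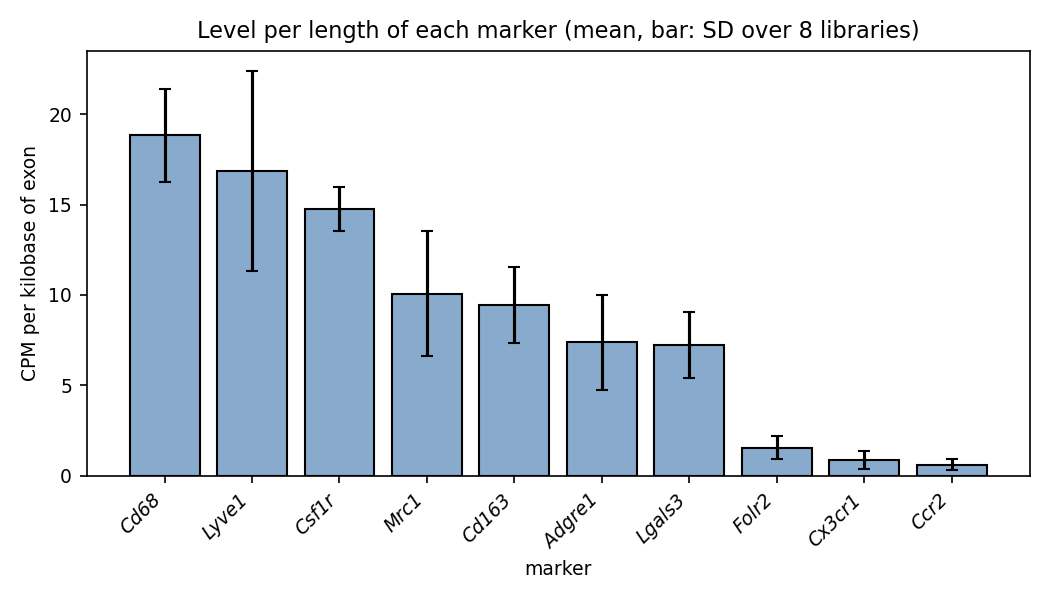
Level of each marker in CPM per kilobase of exon (y axis, linear) with the 10 markers on the x axis. Bars are means and error bars are SD over the 8 libraries; 7 markers lie between 7.25 and 18.8, and Folr2, Cx3cr1 and Ccr2 lie between 0.603 and 1.55.

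Adgre1 (ENSMUSG00000004730, chr17:57358691-57483527, GRCm38, plus strand) had 42.8, 16.7, 28.4 and 23.9 CPM in vehicle 1 to 4 and 19.9, 18.03, 19.9 and 21.5 CPM in DIZE 1 to 4. The highest level was that of vehicle 1 and the lowest that of vehicle 2, so the vehicle libraries enclosed all 4 DIZE libraries. The group means were 28.0 ± 11.0 CPM in vehicle and 19.9 ± 1.44 CPM in DIZE. This gave a log2 fold change of -0.50 ± 0.24 SE with a 95% interval of -1.01 to 0.02, and it did not pass (edgeR adjusted p = 0.278). Without vehicle 1 it was -0.21.

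Csf1r (ENSMUSG00000024621), whose receptor carries the survival signal of macrophages, had 78.1, 83.4, 92.5 and 83.2 CPM in vehicle and 83.0, 76.8, 86.7 and 97.6 CPM in DIZE. All 8 libraries lay close together, with means of 84.3 ± 6.01 and 86.0 ± 8.72 CPM. The log2 fold change was 0.03 ± 0.11 with an interval of -0.21 to 0.27 (edgeR adjusted p = 0.906), so a change of either sign within that interval is compatible with these libraries. Csf1r was the 1 marker among the 3 general ones that was not highest in vehicle 1. Of its exon bases, 873 are shared with Hmgxb3 on the other strand, which had 20.5 to 34.2 CPM. When each library's trend over GC content and transcript length was removed, the direction turned, with a log2 fold change of -0.19, and Csf1r in vehicle 1 became 106 CPM against 72.0 to 92.7 CPM in the others.

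Cd68 (ENSMUSG00000018774, chr11:69664213-69666153, minus strand) had 29.2, 20.9, 27.2 and 25.2 CPM in vehicle and 20.3, 22.4, 22.9 and 21.3 CPM in DIZE. Vehicle 1, 3 and 4 lay above all DIZE libraries and vehicle 2 lay among them. The means were 25.7 ± 3.56 and 21.7 ± 1.19 CPM, and the log2 fold change of -0.24 ± 0.13, interval -0.53 to 0.04, did not pass (edgeR adjusted p = 0.327).

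**Figure D2:**
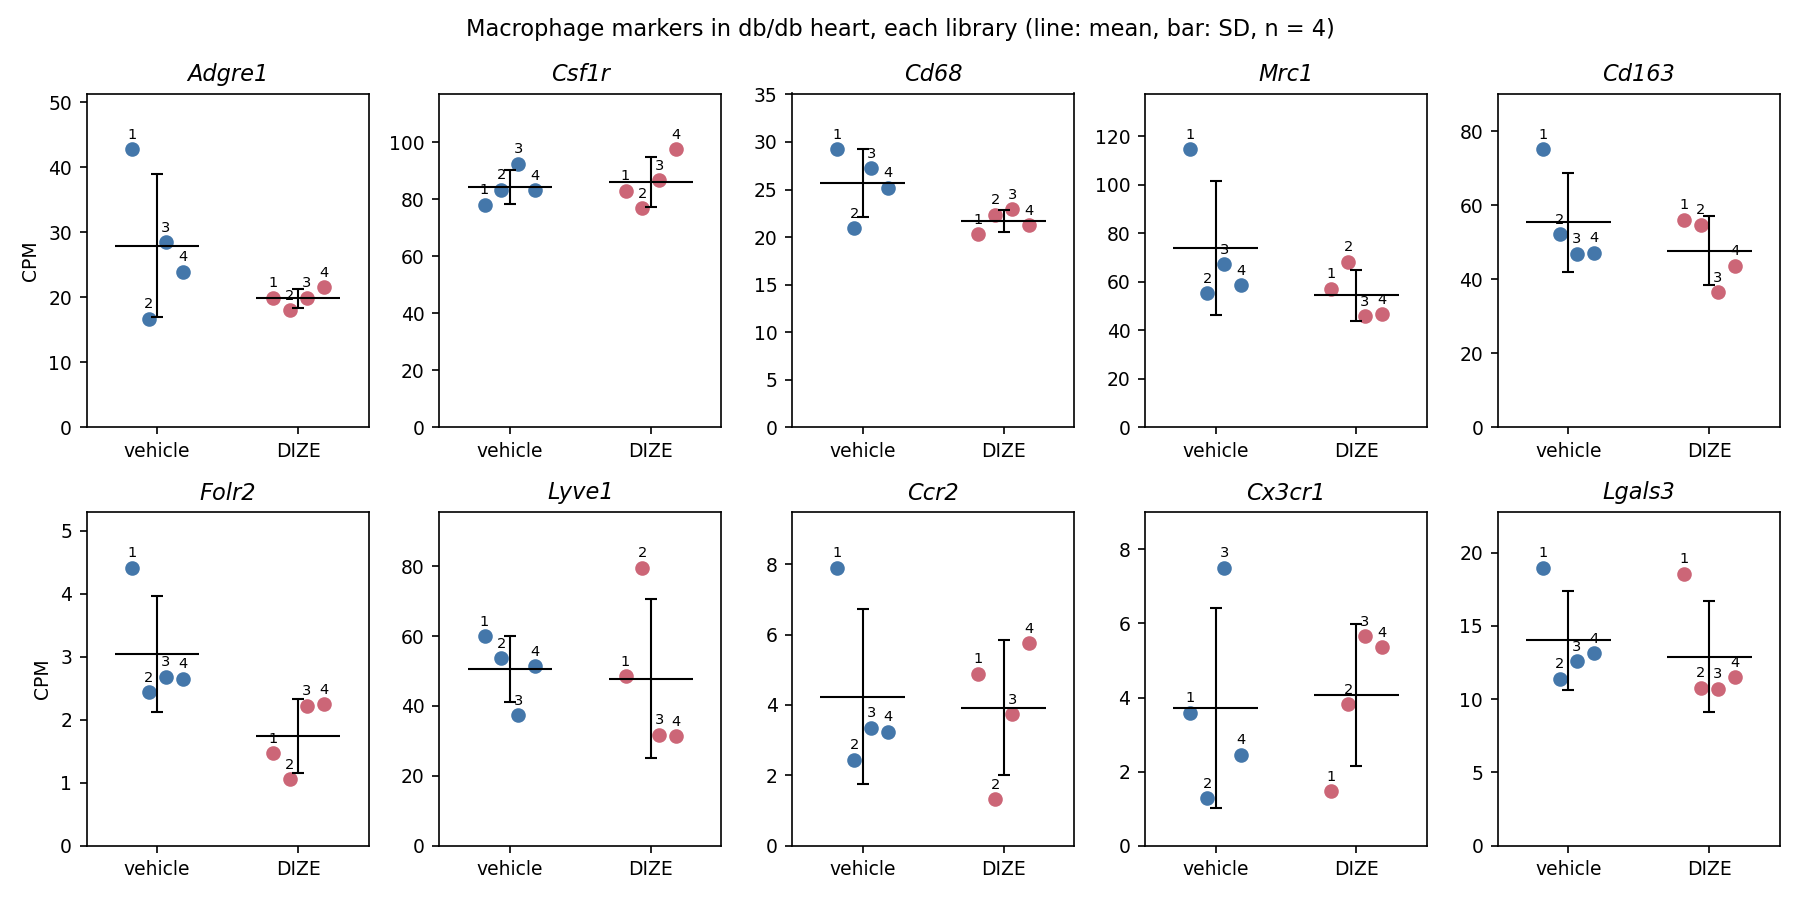
CPM of each marker in every library (y axis, linear, one panel per marker), with vehicle libraries in blue and DIZE libraries in red, numbered as in the text; lines are group means and bars SD (n = 4). Vehicle 1 is the top point for 7 of the 10 markers, and the groups are apart in the Folr2 panel alone.

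Among the receptors of resident macrophages, Mrc1 (ENSMUSG00000026712, chr2:14229392-14332057, plus strand), which takes up mannose-bearing glycoproteins, had 115, 55.3, 67.3 and 58.7 CPM in vehicle and 57.1, 68.3, 45.9 and 46.7 CPM in DIZE. Vehicle 1 was highest by a wide margin, and vehicle 2 to 4 overlapped with DIZE 1 and 2. The means were 74.0 ± 27.6 and 54.5 ± 10.5 CPM. Its log2 fold change was -0.44 ± 0.23, interval -0.95 to 0.06 (edgeR adjusted p = 0.310), and it was -0.15 without vehicle 1.

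Cd163 (ENSMUSG00000008845, chr6:124304656-124330527, plus strand), which clears haemoglobin bound to haptoglobin, had 75.2, 52.2, 46.9 and 47.2 CPM in vehicle and 56.2, 54.7, 36.5 and 43.7 CPM in DIZE. Vehicle 1 lay above all DIZE libraries, DIZE 3 and DIZE 4 lay below all vehicle libraries, and the rest overlapped, with means of 55.4 ± 13.4 and 47.8 ± 9.36 CPM. This gave a log2 fold change of -0.22 ± 0.19, interval -0.62 to 0.19 (edgeR adjusted p = 0.543), and it was -0.03 without vehicle 1. The 5 globin and erythroid genes had a summed level of 101 to 210 CPM in vehicle and 8.95 to 78.4 CPM in DIZE, with 0 of the 5 absent from all libraries. Their part in the levels of Cd163 and of the monocyte markers was not tested.

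Folr2 (ENSMUSG00000032725, chr7:101839988-101857194, minus strand), which takes up folate, had 4.41, 2.44, 2.68 and 2.65 CPM in vehicle and 1.47, 1.05, 2.22 and 2.24 CPM in DIZE. It was the 1 marker of 10 whose groups did not overlap, all DIZE libraries lying below all vehicle libraries, which held for 5.26% of all tested genes in that direction and for 12.4% in either. The means were 3.05 ± 0.92 and 1.75 ± 0.59 CPM, and the log2 fold change was -0.78 ± 0.31, interval -1.46 to -0.10. It did not pass over all tested genes (edgeR adjusted p = 0.206). These levels stand for 8 to 43 reads per library, and with each library left out in turn the value ranged from -0.92 to -0.54. The lowest vehicle and the highest DIZE library were 2.44 and 2.24 CPM. Of its 1546 exon bases, 975 are shared with the antisense gene Gm10602, at 1.71 to 4.27 CPM, and whether reads were counted by strand is not stated.

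Lyve1 (ENSMUSG00000030787, chr7:110850607-110863239, minus strand), which binds hyaluronan and marks lymphatic endothelium as well as resident macrophages, had 59.9, 53.6, 37.4 and 51.4 CPM in vehicle and 48.6, 79.6, 31.7 and 31.4 CPM in DIZE. The highest and the lowest levels were both in DIZE, in DIZE 2 and DIZE 4. The means were 50.6 ± 9.50 and 47.8 ± 22.7 CPM, and the log2 fold change was -0.09 ± 0.28, interval -0.70 to 0.53 (edgeR adjusted p = 0.892). Without DIZE 2 it was -0.44, and with the GC and length trend removed it was -0.03. Of the 6 lymphatic markers, 5 were tested and 0 passed. Ccl21a, a defining chemokine of lymphatic vessels, was at 0 in all libraries. Whether that 0 reflects its expression or the way reads were counted was not tested. The 6 markers summed to 97.5 to 136 CPM in vehicle and 148 to 162 CPM in DIZE. Of the 5 tested, 2 had values above 0 and 3 below, with a median log2 fold change of -0.02. Without Prox1 the sums overlapped, at 51.6 to 67.1 CPM in vehicle and 52.9 to 61.9 CPM in DIZE. The list's largest difference in CPM was that of Prox1, a transcription factor gene listed here as a lymphatic marker. It had 63.8 ± 13.7 CPM in vehicle against 98.2 ± 8.66 CPM in DIZE (log2 0.62 ± 0.16, edgeR adjusted p = 0.105). Prox1 was 0.47 without vehicle 1 and 0.71 with the GC and length trend removed. The share of Lyve1 reads and of Prox1 reads from lymphatic endothelium, rather than from other heart cells, was not tested.

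Timd4, a receptor for dying cells and a marker of self-renewing macrophages, had 4.04 ± 2.00 CPM in vehicle against 3.25 ± 1.56 CPM in DIZE (log2 -0.32 ± 0.42, edgeR adjusted p = 0.706). In the list of 15 further genes of resident macrophages, 13 were tested, 5 with values above 0 and 8 below, with a median log2 fold change of -0.07 and 0.15 without vehicle 1, and 0 passed by edgeR with 3 at an unadjusted p under 0.05. Of all tested genes, 19.4% had such a p, and those 3 did not share a sign. Gas6, a bridging ligand for the uptake of dying cells, had 160 ± 6.74 and 191 ± 12.3 CPM (log2 0.26 ± 0.10, adjusted p = 0.195). Its groups did not overlap, which held for 7.17% of all tested genes in that direction. The lectin gene Clec10a had 15.5 ± 2.03 and 20.7 ± 3.70 CPM (log2 0.41 ± 0.16, adjusted p = 0.196). Selenop, a selenium carrier, had 509 ± 161 and 362 ± 62.1 CPM (log2 -0.49 ± 0.21, adjusted p = 0.227). With the GC and length trend removed, the log2 fold changes were 0.04 for Gas6, 0.39 for Clec10a and -0.36 for Selenop. The growth factor gene Igf1 had 31.6 ± 14.8 and 21.2 ± 4.33 CPM (log2 -0.58 ± 0.28, adjusted p = 0.295). Without vehicle 1 the log2 fold changes were 0.28 for Gas6, 0.51 for Clec10a, -0.26 for Selenop, -0.21 for Igf1 and -0.08 for Timd4. With that trend removed, Igf1 was -0.39 and Timd4 -0.15.

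The stretches before the starts of Mrc1, Cd68 and Folr2 are shown because PU.1, the transcription factor that directs macrophage gene expression, is known to bind purine-rich sites with a GAGGAA core. Sequences are RefSeq's (GRCm38.p6), from 250 bases before the annotated start, 5′ to 3′ on the gene's strand, and cut where an annotated exon begins. Capitals mark GAGGAA or its reverse complement TTCCTC. Mrc1 is at chr2:14229164-14229391 on the plus strand, Cd68 at chr11:69666171-69666420 on the minus strand and Folr2 at chr7:101845332-101845581 on the minus strand. RefSeq gives 2 starts for Folr2, and the window shown precedes the one that lies inside the gene span given above. The window of the other start, at chr7:101857195-101857440, lies just before that span and is not shown.
Mrc1: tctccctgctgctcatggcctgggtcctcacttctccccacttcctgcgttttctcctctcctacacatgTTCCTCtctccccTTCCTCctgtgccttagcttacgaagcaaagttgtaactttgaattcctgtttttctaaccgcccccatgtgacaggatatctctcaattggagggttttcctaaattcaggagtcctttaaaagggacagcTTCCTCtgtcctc
Cd68: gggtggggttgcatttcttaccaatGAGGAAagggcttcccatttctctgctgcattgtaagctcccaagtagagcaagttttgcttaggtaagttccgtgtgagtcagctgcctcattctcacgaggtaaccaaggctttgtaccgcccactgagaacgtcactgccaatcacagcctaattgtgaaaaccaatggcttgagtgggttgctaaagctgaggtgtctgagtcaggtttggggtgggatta
Folr2: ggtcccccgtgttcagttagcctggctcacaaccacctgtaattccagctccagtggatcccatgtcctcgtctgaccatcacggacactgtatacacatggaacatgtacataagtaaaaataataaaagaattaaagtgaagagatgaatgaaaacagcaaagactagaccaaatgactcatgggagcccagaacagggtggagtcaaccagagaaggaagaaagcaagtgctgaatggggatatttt
The Mrc1 window held 3 matches, all TTCCTC, beginning 180, 167 and 35 bases before the start, and the Cd68 window held 1 match, GAGGAA, beginning 225 bases before it. Both Folr2 windows held 0. Windows were found for 7 of the 10 markers, with no entry for Adgre1, Csf1r and Lyve1, and 2 of the 7, Mrc1 and Cd68, held a match. Counted by window, 2 of the 8 marker windows held one, against 23.3% of all 32851 promoter windows of that length. The motif was searched on both strands, its match is a description of these letters and its absence says nothing of the factor. Spi1, which encodes PU.1, was at 6.73 ± 1.84 CPM in vehicle against 5.41 ± 0.67 CPM in DIZE (log2 -0.32 ± 0.22, edgeR adjusted p = 0.443), -0.12 without vehicle 1 and -0.65 with the GC and length trend removed.

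The chemokine receptor genes Ccr2 and Cx3cr1 were low and scattered. Ccr2 (ENSMUSG00000049103, chr9:124101950-124113557, plus strand) had 7.90, 2.44, 3.35 and 3.24 CPM in vehicle and 4.88, 1.32, 3.74 and 5.75 CPM in DIZE, from 10 to 77 reads per library. Vehicle 1 lay above all DIZE libraries and DIZE 2 below all vehicle libraries, and the other 6 libraries overlapped. The log2 fold change was -0.11 ± 0.44, interval -1.08 to 0.87 (edgeR adjusted p = 0.918), and it was 0.39 without vehicle 1.

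Cx3cr1 (ENSMUSG00000052336, chr9:119901616-120069879, minus strand) had 3.59, 1.28, 7.51 and 2.45 CPM in vehicle and 1.47, 3.82, 5.66 and 5.36 CPM in DIZE, from 10 to 56 reads. The highest library and the lowest were both vehicle libraries, vehicle 3 and vehicle 2. Its log2 fold change was 0.17 ± 0.50, interval -0.94 to 1.28 (edgeR adjusted p = 0.884), and it was 0.07 with the GC and length trend removed. The intervals of both genes cover changes of either sign. Of the exon bases of Cx3cr1, 78 are shared with the antisense gene Gm33858, which had 0 to 0.20 CPM. Of 18 further monocyte and inflammatory genes, 5 were tested and 0 passed by edgeR, with 0 at an unadjusted p under 0.05. The monocyte gene Ly6c2 was at 0.10 to 1.28 CPM and Plac8 at 0 to 0.69 CPM.

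Lgals3 (ENSMUSG00000050335, chr14:47367751-47386160, plus strand), which encodes a secreted lectin of activated macrophages and other cells, had 19.0, 11.4, 12.6 and 13.1 CPM in vehicle and 18.6, 10.8, 10.7 and 11.5 CPM in DIZE. Vehicle 1 and DIZE 1 were set apart from the other 6 libraries, and the other 6 lay between 10.7 and 13.1 CPM. For Lgals3 the log2 fold change was -0.13 ± 0.22, interval -0.61 to 0.35 (edgeR adjusted p = 0.777), and it was 0.05 without vehicle 1 and -0.24 with the GC and length trend removed.

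The ligands of these receptors came next. Csf1, the growth factor of CSF1R, had 49.7 ± 11.0 CPM with vehicle and 55.2 ± 4.88 CPM with DIZE (log2 0.15 ± 0.16, edgeR adjusted p = 0.626). Il34, the alternative ligand, had 5.55 ± 0.78 and 5.42 ± 1.10 CPM (log2 -0.04 ± 0.21, adjusted p = 0.938). Ccl2, the main ligand of CCR2, had 4.41, 2.95, 2.82 and 3.04 CPM in the vehicle libraries and 5.01, 7.11, 4.35 and 4.29 CPM in the DIZE libraries (log2 0.63 ± 0.24, edgeR adjusted p = 0.198). The groups overlapped through vehicle 1 alone. For Ccl2 the log2 fold change was 0.81 without vehicle 1 and 0.93 with the GC and length trend removed, and neither passed. Cx3cl1, the membrane-bound ligand of CX3CR1, had 9.54, 13.6, 14.9 and 15.8 CPM in vehicle and 17.0, 16.6, 17.5 and 20.6 CPM in DIZE. All 4 DIZE libraries lay above all 4 vehicle libraries, as for 7.17% of all tested genes, and the log2 fold change of 0.41 ± 0.17 did not pass (edgeR adjusted p = 0.213). With the GC and length trend removed it was 0.13. Ccl8, another monocyte attractant, had 13.7 ± 9.69 and 9.96 ± 3.94 CPM (log2 -0.48 ± 0.50, adjusted p = 0.625). Its log2 value was -0.06 without vehicle 1 and -0.08 with the trend removed, Csf1 was 0.02 and -0.06, and Il34 was -0.21 with the trend removed. Ccl7 and Ccl12 were too low to be tested, at 1.197 ± 0.326 and 1.08 ± 0.61 CPM and at 2.81 ± 2.50 and 1.63 ± 1.70 CPM.

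**Figure D3:**
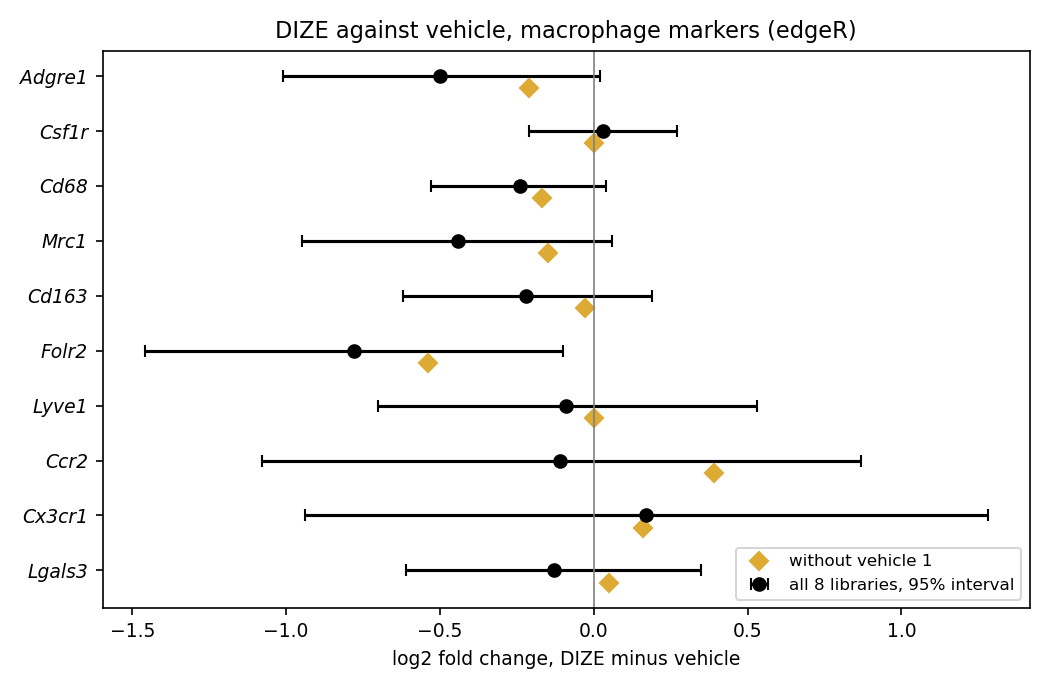
log2 fold change of each marker, DIZE minus vehicle (x axis), from edgeR over 8 libraries with its 95% interval, and beside it the value without vehicle 1 (diamonds). The interval of Folr2 alone lies below 0, at -1.46 to -0.10. The diamonds lie nearer to 0 for every marker except Ccr2, whose diamond is at 0.39, and that of Folr2 is at -0.54.

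Within each library the markers were not in fixed proportion. The ratio of Csf1r to Adgre1 CPM was 1.83 in vehicle 1 and 3.26 to 5.0 in the other 7 libraries. The ratios were not corrected for the GC and length trend. Its removal moved Csf1r in vehicle 1 from 78.1 to 106 CPM and Adgre1 there from 42.8 to 40.7 CPM, which brings this ratio nearer to the others. On the log2 scale it was 1.67 ± 0.60 in vehicle and 2.11 ± 0.05 in DIZE, the 4 DIZE libraries lying between 2.06 and 2.18. Lyve1 over Adgre1 ranged from 0.40 in vehicle 3 to 2.14 in DIZE 2, both on the log2 scale. For all 9 ratios to Adgre1 the groups overlapped.

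A list of 21 core macrophage genes outside the 10 markers, all of them tested, had 18 values below 0 and 3 above. The median log2 fold change was -0.42, and 0 passed by edgeR. Of the 21, 8 had an unadjusted p under 0.05, against 19.4% of all tested genes. In vehicle 1, where 22.5% of all tested genes were highest, 18 of the 21 were at their highest. Their summed level was 644 to 1265 CPM in vehicle and 605 to 705 CPM in DIZE, with 0 of the 21 absent from all libraries. Without vehicle 1 the median was -0.18 and 17 of 21 lay below 0. In the heat map by library, the median deviation of the core genes in vehicle 1 was 0.77 on the log2 scale and that of the 10 markers 0.54, while in the other 7 libraries the 2 groups of genes lay between -0.26 and 0.18. Of 7 fibroblast markers, 5 were also highest in vehicle 1, with a median deviation of 0.58 over the list. Their sum was 2127 CPM there against 1146 to 1544 CPM in the other 7 libraries. Dcn, named after its values were seen, made up 1462 CPM of that sum. Col1a1 went the other way and was lowest in vehicle 1, at 45.2 CPM against 102 to 167 CPM elsewhere. Of these 7 genes, 6 had a log2 fold change below 0, with a median of -0.21 and -0.02 without vehicle 1, and 0 were absent from all libraries. The part of the fibroblast, cardiomyocyte and atrial levels in the marker levels of vehicle 1 was not tested. The 6 cardiomyocyte markers summed to 21676 to 36880 CPM in vehicle, lowest in vehicle 1, and to 33888 to 38953 CPM in DIZE. The 5 atrial markers, of which 4 were tested, summed to 35.7 to 824 CPM in vehicle, highest in vehicle 1. In DIZE they summed to 13.6 to 131 CPM, and 0 of either list were absent from all libraries. Reads of the atrial gene Sln numbered 1010 in vehicle 1 and 0 in both vehicle 3 and DIZE 2. Whether each library sampled the same parts of the heart was not tested.

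**Figure D4:**
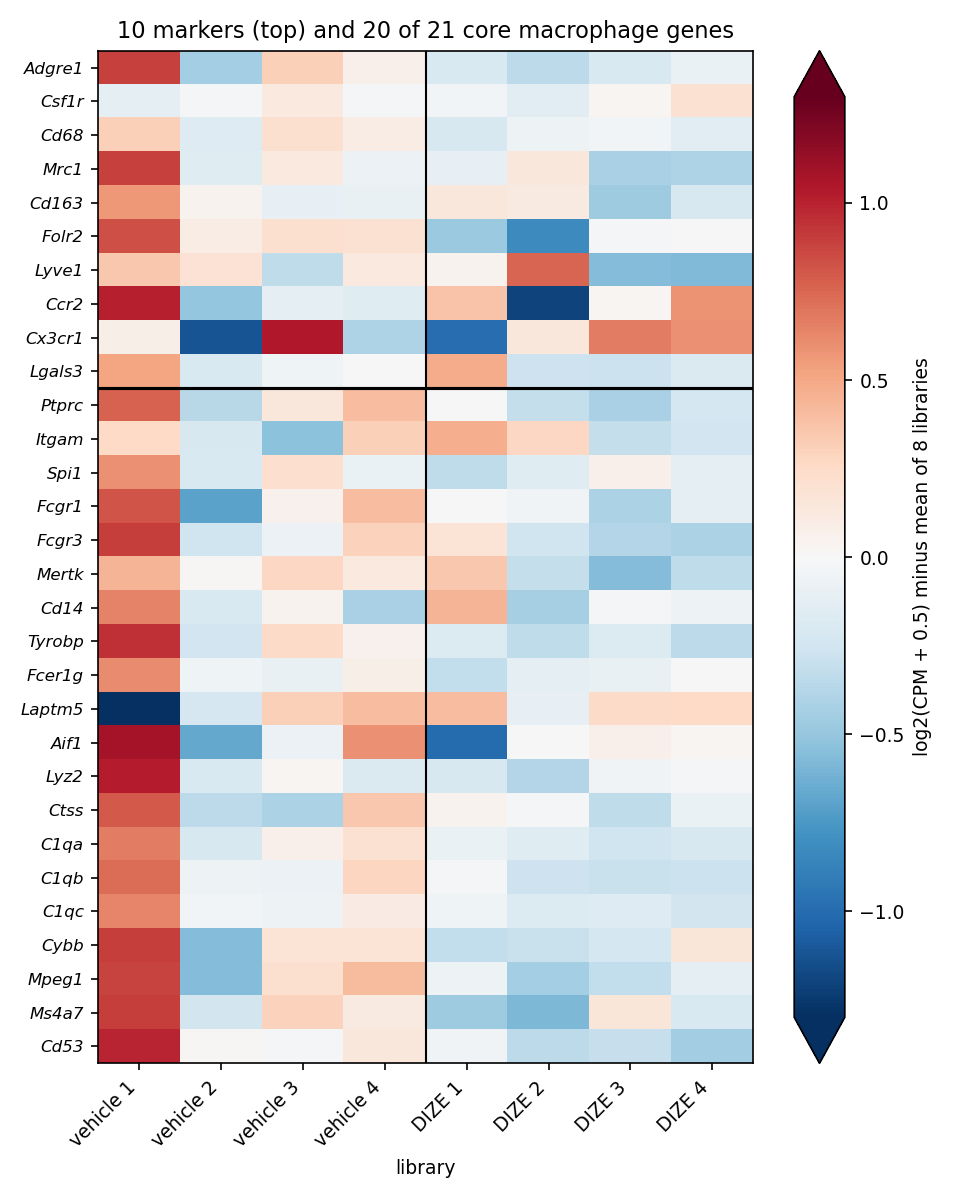
Heat map of log2(CPM + 0.5) minus the mean of 8 libraries, with libraries as columns and the 10 markers (top) and 20 of the 21 core macrophage genes (below the line) as rows; red is above the mean and blue below. The vehicle 1 column is above the mean for most genes, with medians of 0.54 over the 10 markers and 0.77 over all 21 core genes, and Laptm5 is below it there.

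Of the named core genes, Cd53, a leukocyte tetraspanin, had 11.7 ± 4.59 CPM in vehicle against 7.43 ± 0.96 CPM in DIZE (log2 -0.67 ± 0.24, edgeR adjusted p = 0.178). It was the 1 of 21 whose groups did not overlap, which held for 5.26% of all tested genes in that direction. C1qb, a chain of the complement initiator C1q made by tissue macrophages, had 87.9 ± 24.4 and 63.6 ± 5.75 CPM (log2 -0.47 ± 0.17, adjusted p = 0.183), and C1qa had 77.5 ± 20.5 and 58.9 ± 3.03 CPM (log2 -0.40 ± 0.17, adjusted p = 0.224). The signalling adaptor gene Tyrobp had 18.5 ± 7.17 and 12.2 ± 0.81 CPM (log2 -0.60 ± 0.23, adjusted p = 0.195). Ptprc, the pan-leukocyte antigen, had 16.3 ± 5.26 and 11.1 ± 1.43 CPM (log2 -0.56 ± 0.22, adjusted p = 0.207). Itgam, an integrin chain of monocytes and neutrophils, had 2.74 ± 0.86 and 2.95 ± 0.93 CPM (log2 0.07 ± 0.31, adjusted p = 0.922). Without vehicle 1 the log2 fold changes were -0.35 for Cd53, -0.27 for C1qb, -0.21 for C1qa, -0.30 for Tyrobp, -0.35 for Ptprc and 0.18 for Itgam. With the GC and length trend removed, Cd53 was -0.38, C1qb -0.55, C1qa -0.53, Tyrobp -0.50, Ptprc -0.29 and Itgam 0.02. Laptm5, a lysosomal protein gene of blood cells named after its values were seen, was also above 0 and was lowest in vehicle 1 at 9.03 CPM against 19.6 to 30.3 CPM elsewhere.

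Of 7 dendritic cell markers, 2 were tested and 0 passed by edgeR. Both had an unadjusted p under 0.05, as for 19.4% of all tested genes. Clec9a, a receptor for dying cells on dendritic cells, had 6.24 ± 1.42 and 4.46 ± 0.49 CPM (log2 -0.48 ± 0.21, adjusted p = 0.253), and Zbtb46, a transcription factor gene of dendritic cells that endothelium also expresses, had 31.1 ± 4.54 and 24.7 ± 3.96 CPM (log2 -0.33 ± 0.15, adjusted p = 0.254). The 7 summed to 33.6 to 45.1 CPM in vehicle and 26.7 to 34.9 CPM in DIZE, with 0 absent from all libraries, and their part in the marker values was not tested. Neutrophil, T, NK and B cell markers were sparser. Of 6 neutrophil markers 1 was tested, their sum was 3.34 to 8.52 CPM in vehicle and 4.19 to 10.5 CPM in DIZE, and Ly6g was at 0 in all libraries. Of 8 T and NK cell markers 1 was tested, with sums of 2.69 to 5.44 and 1.72 to 4.27 CPM, and of 5 B cell markers 0 were tested, with sums of 1.41 to 3.62 and 0.66 to 2.44 CPM. The liver transcripts of vehicle 2 came with markers of liver macrophages, named after their values were seen: Clec4f was at 3.33 CPM there and 0.24 to 0.88 CPM elsewhere, and Cd5l at 2.05 CPM there and 0 to 0.26 CPM elsewhere. Vehicle 2 was lowest of the 8 libraries for Adgre1 and Cx3cr1, and the part of the liver transcripts in its marker levels was not tested.

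The genes whose profile over the 8 libraries came closest to a marker, among 10457 candidates of at least 5 CPM, were found by the mean absolute difference of centred log2(CPM + 0.5). For Adgre1 they were Tyrobp (0.08), Pla2g4a and Clec1a, for Mrc1 Plek (0.09), Arhgap19 and Zfp748, and for Lgals3 Fcgr2b (0.08), Zfp72 and Zfas1. Tyrobp, Plek and Fcgr2b are expressed in myeloid cells. For Cd68 the nearest were Arhgap12 (0.04), Pip4k2a and Tbc1d19, for Csf1r they included Timp2 (0.045) and Plpbp, and for Cd163 Vamp7 (0.08) and Metrnl. For Folr2 they were Ecm2 (0.10), Ttc23 and Cav1, and for Lyve1 Clca3a1 (0.13), Eif1a and Glt28d2, of which Clca3a1 is known from lymphatic endothelium. Ccr2 had no close profile, the nearest being Mdfic (0.30), Arhgap9 and Tctex1d2, nor had Cx3cr1, with Vgll3 (0.30), Galnt18 and Hmcn1. All 8 points of such a profile share library and depth, so likeness is a description of these libraries.

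Levels were also compared by the form of the sample titles. These hold the letters db in 2 libraries of each group and not in the other 2, and the labels do not give their meaning. The sample descriptions split the libraries differently. There all 4 vehicle libraries hold db, and among DIZE libraries only the 2 whose titles hold it. A split by description was not tested. The comparison by title was chosen after the data were examined. Cd163 had 52.2 to 75.2 CPM in the 4 libraries with db and 36.5 to 47.2 CPM in the 4 without, with no overlap, as for 4.41% of all tested genes (log2 0.45 ± 0.13, edgeR adjusted p = 0.501). Lyve1 had 48.6 to 79.6 CPM with db and 31.4 to 51.4 CPM without (log2 0.68 ± 0.20, edgeR adjusted p = 0.501). Mrc1 was on the same side and Cx3cr1 on the other, with log2 values of 0.44 and -1.02. By edgeR 0 of 13648 genes passed for title form (0.0%), with 8.4% at an unadjusted p under 0.05.

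**Figure D5:**
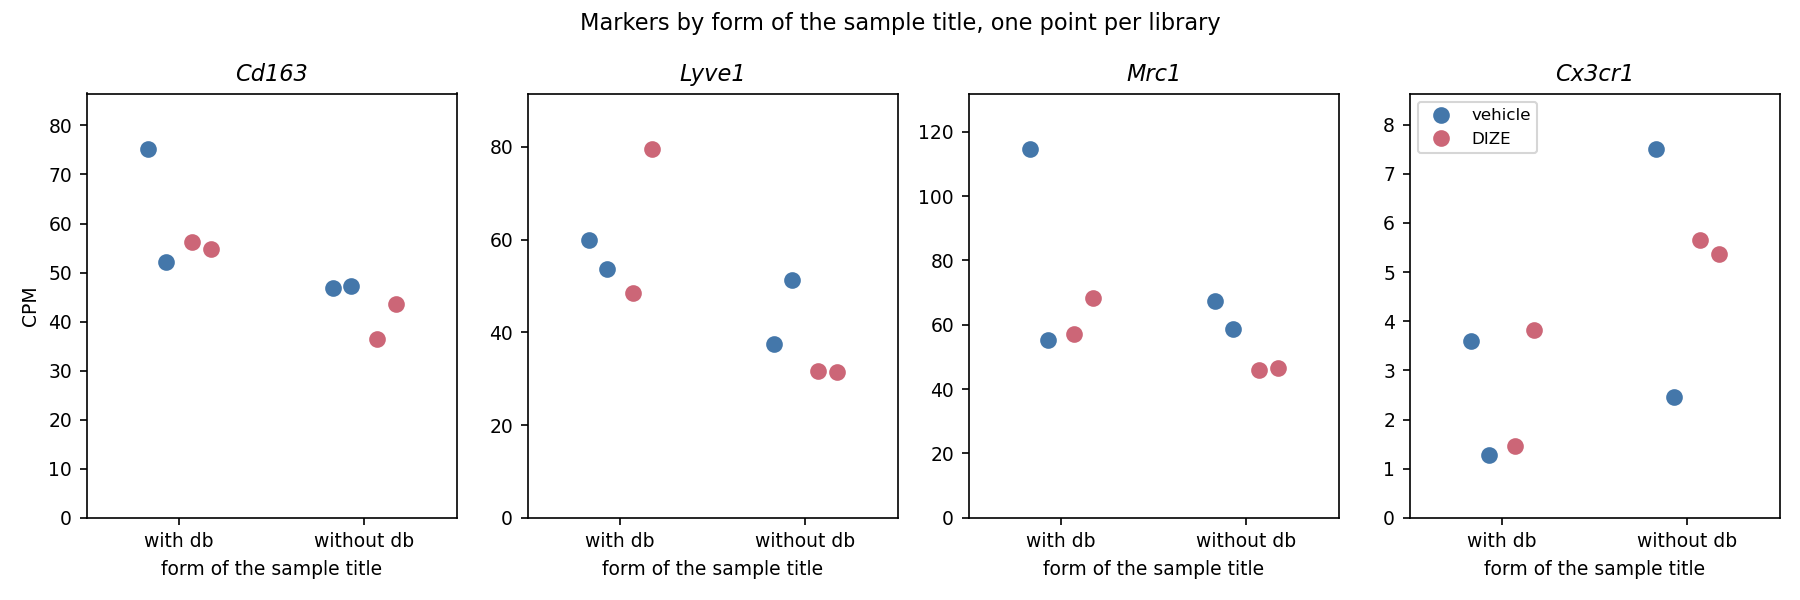
CPM of Cd163, Lyve1, Mrc1 and Cx3cr1 (y axes, linear from 0) in libraries whose titles hold the letters db and in those whose titles do not (x axis), one point per library, coloured by treatment. Cd163 is the panel without overlap, at 52.2 to 75.2 against 36.5 to 47.2 CPM.

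Within each title form the treatment values of some markers differed in sign. Lyve1 had a log2 fold change of 0.18 with db and -0.50 without (interaction adjusted p = 0.593 by edgeR), and Ccr2 had -0.74 and 0.53 (adjusted p = 0.665). Folr2 was -1.44 with db and -0.25 without (adjusted p = 0.571). For the interaction 0 of 13648 genes passed (0.0%), with 8.84% at an unadjusted p under 0.05. Mrc1 was -0.43 in the libraries with db and -0.44 in those without. In the latter, with 2 libraries against 2, it passed (edgeR adjusted p = 0.0409), where 9.57% of 14103 genes passed.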

How the data were processed

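Gene-level read counts from heart tissue were deposited by the authors as 1 table of raw counts. It held 55487 Ensembl genes by 8 columns, each tied to its sample by its description. Per the submitters' processing notes, the tools were HTSeq 0.6.1p1, STAR 2.7.3, R 4.1 and edgeR, with mm10 as build. The sources used here give neither their settings nor the annotation release or strand option. Libraries were made with a stranded mRNA kit, per the labels' protocols. Columns from other samples numbered 0.

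The 10 markers, the gene lists and the tests were chosen with earlier results of these data known. Gene symbols, positions, exon lengths and GC content came from GENCODE M21 (GRCm38), and 260 IDs had no symbol. Counts were filtered with filterByExpr (minimum count 10, minimum total 15), which kept all 10 markers, and fitted with edgeR 4.0.16 in R 4.3.3 (TMM factors, robust quasi-likelihood, two-sided, group as the only term), and Benjamini-Hochberg adjustment ran over all 13648 genes at 0.05. SE is the absolute log2 fold change over the root of the F statistic, and intervals are 95% intervals from that fit. No pair of libraries agreed within sampling noise, the closest having a chi-square of 5.46 per degree of freedom. The procedure was tested on simulated data. Alternatives were DESeq2 1.42.0, limma-voom 3.58.1, RLE and library-total scaling, no filter and a stricter filter (5 CPM in 4 libraries), title number and title form as blocks, removal of GC and length trends (splines of 4 degrees of freedom) and each library left out. Fits within each title form, and title form as a term with its interaction, were added after the data were examined.

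Named genes are the 10 markers, up to 4 members of each list with the smallest unadjusted p, 6 ligands, 6 reference markers and the 3 genes of nearest profile to each marker, without placeholder symbols; others are said in the text to be picked with their values known, or are overlapping genes. A few genes that this rule names are not reported here. Levels of a few reads carry large counting error. Promoter sequences are from RefSeq (GRCm38.p6) for 7 of the 10 markers.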

Additional observations from a re-analysis of the deposited data

Results flagged for a closer look

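Over 22 of the named genes, and not the rest, 44 groups of 4 libraries were searched for outlying libraries. A library was picked out if its gap to the nearest other exceeded the 95% critical value of Dixon's ratio. Chance alone picks out about 1 in 20 independent groups. These groups share the same 8 libraries, so that rate cannot be set against the 6 picked out. Among the markers, Folr2 in vehicle 1 stood above the other vehicle libraries at 4.41 CPM, and so did Ccr2 in vehicle 1 at 7.90 CPM. Lgals3 in DIZE 1 stood above the other DIZE libraries at 18.6 CPM. Of the other genes, Prox1 in vehicle 1 was low at 43.4 CPM, Ccl2 in vehicle 1 was high at 4.41 CPM and Ccl12 in DIZE 1 was high at 4.15 CPM.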

How the results depend on the processing

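Over 187 alternatives run on single markers, 169 kept the direction of the reported value, 18 turned it and 1 passed the threshold. The value of Csf1r turned to -0.03 with library totals as the only scaling, to -0.19 with GC and length trends removed and to -0.01 in titles with db alone, and ranged from -0.03 to 0.08 with each library left out. Lyve1 was 0.18 in titles with db alone and -0.44 to 0.08 with each library left out. Ccr2 was 0.05 with trends removed, 0.53 in titles without db alone and -0.35 to 0.39 with each library left out, and the ranges were -0.10 to 0.73 for Cx3cr1 and -0.35 to 0.05 for Lgals3. Same-numbered vehicle and DIZE libraries had correlations of deviations of -0.14 to 0.02, and differently numbered ones -0.21 to 0.14. These values cannot decide whether the numbers in the titles pair the libraries. With that number as a replicate block, Lyve1 was 0.08 and Cx3cr1 -0.31, 0 of all genes passed and 0 of the markers. Markers past the threshold were 0 under the alternatives run, except 1 in titles without db alone (Mrc1). Genes past the threshold, 5 in the reported fit, were 609 by DESeq2, 386 with no filter, 0 with library totals, 9 with title form as a block, 0 in titles with db alone and 1349 in titles without db alone. They were 0 to 240 with each library left out, 240 without vehicle 2, 9 without vehicle 1, 1 without vehicle 3 and 0 without any 1 of the other 5. The median over the markers ranged from -0.27 to -0.02 and that of the core list from -0.55 to -0.18. The cause of these shifts was not tested. The stricter filter removed Folr2, Ccr2 and Cx3cr1, whose low counts limit what can be seen.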

Other observations

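Genes of lipid-handling macrophages and of mast cells were also measured. Of 12 lipid-associated macrophage genes, 11 were tested, 8 with values below 0 and 3 above. Their median log2 fold change was -0.19, and 0.02 without vehicle 1. By edgeR 0 passed and 1 had an unadjusted p under 0.05, against 19.4% of all tested genes. That gene was Fabp5, a fatty acid carrier, with 62.0 ± 14.7 CPM in vehicle against 44.3 ± 11.2 CPM in DIZE (log2 -0.48 ± 0.20, edgeR adjusted p = 0.227). The lipid receptor gene Trem2 had 6.31 ± 2.97 and 4.94 ± 0.81 CPM, and it was 10.5 CPM in vehicle 1. Of 5 mast cell genes, all tested and with 0 at an unadjusted p under 0.05, all 5 lay below 0 with a median of -0.54, and the median was -0.11 without vehicle 1. Their summed level was 56.9 CPM in vehicle 1 and 12.8 to 34.0 CPM in the other 7 libraries, so the sum was highest in that library. Of 6 cell division genes, which dividing cells of any type express, 4 were tested and 0 passed by edgeR. All 4 lay below 0 with an unadjusted p under 0.05, as 10.3% of all tested genes did. The groups of all 4 did not overlap, which held for 5.26% of all tested genes in that direction. The summed level of the 6 genes was 12.1 to 24.2 CPM in vehicle and 3.30 to 6.14 CPM in DIZE. Which cells they came from was not tested.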
